A study of Mus musculus with 2 samples.

Results

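MicroRNAs of blood vessel walls were followed in hippocampal tissue of aged mice: Mir126a and Mir126b, linked to endothelial cells, and Mir143, Mir145a, Mir145b, Mir199a-1, Mir199a-2, Mir199b and Mir214, linked to smooth muscle cells, pericytes and fibroblasts. These 9 genes were chosen by name from the 2202 miRNA genes in the deposited count files, with earlier results of these data known. The tissue, labelled as a layer of hippocampus with no layer named, came from female B6CASTF1/J mice aged 18 to 20 months, first-generation hybrids of the C57BL/6 and CAST strains, with no treatment or transgene in the labels. RNA under 30 nt was sequenced in 2 libraries, numbered as biological replicates 1 and 2, which form 1 group. Their tissue records carry different animal numbers but the same donor record, so the spread between them may be partly technical. No second condition exists, and the data give levels and the difference between the libraries, without a test.

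A miRNA is cut from a hairpin precursor, and either arm of the hairpin can be loaded into the silencing complex. There the seed, bases 2 to 8 of the mature miRNA, pairs with target messenger RNAs. miR-126 is made from within Egfl7, an endothelial gene, and is known for sustaining VEGF signalling and vessel integrity. miR-143 and miR-145 are made from 1 precursor transcript and promote the contractile state of smooth muscle. miR-199a and miR-214 are cut from Dnm3os, a noncoding transcript of mesenchymal cells.

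The sequences below show which members can be told apart by a read and which cannot. The RefSeq table for GRCm38 (mm10) held hairpins for 6 of the 9 genes. Sequences for Mir143, Mir145a and Mir145b are not shown here. For Mir126a and Mir199b RefSeq gave the 3′ arm only, so the seeds of their 5′ arms were not compared. Mature sequences are written 5′ to 3′ with the seed in capitals, and the 10 entries, 1 per gene and arm, came down to 7 different sequences with 7 different seeds.
miR-126a-3p: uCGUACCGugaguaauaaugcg
miR-126b-5p: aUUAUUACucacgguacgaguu
miR-126b-3p: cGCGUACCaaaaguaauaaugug
miR-214-3p: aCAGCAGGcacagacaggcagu
miR-214-5p: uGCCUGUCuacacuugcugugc
miR-199a-5p: cCCAGUGUucagacuaccuguuc
miR-199a-3p and miR-199b-3p: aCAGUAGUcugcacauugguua

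miR-199a-5p occurred whole in the hairpins of both Mir199a-1 and Mir199a-2. The 3′ arm above was the same in all 3 Mir199 genes. Of the 10 arm entries, 5 were held whole by a hairpin elsewhere in the genome, all of them in Mir199 genes, and the count was again 5 with the first 18 bases alone. The arms of Mir126a, Mir126b and Mir214 shown above occurred in no hairpin elsewhere in the genome. The only other gene in the table that shares a seed with one of these arms was Mir761, which has the seed of miR-214-3p and 0 counts in both libraries.

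The Mir199 hairpins differ outside the arms, and on the 5′ side Mir199b also differs from miR-199a-5p by 1 base. They lie at chr9:21496495-21496564 on the minus strand (Mir199a-1), chr1:162217814-162217923 on the plus strand (Mir199a-2) and chr2:32318460-32318569 on the plus strand (Mir199b), in mm10. Capitals mark bases in any stretch of 18 that another hairpin also holds.
Mir199a-1: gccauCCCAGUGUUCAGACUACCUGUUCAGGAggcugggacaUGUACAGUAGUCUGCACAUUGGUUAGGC
Mir199a-2: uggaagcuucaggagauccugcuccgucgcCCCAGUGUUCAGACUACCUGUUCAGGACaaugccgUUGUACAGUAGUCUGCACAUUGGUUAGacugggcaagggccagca
Mir199b: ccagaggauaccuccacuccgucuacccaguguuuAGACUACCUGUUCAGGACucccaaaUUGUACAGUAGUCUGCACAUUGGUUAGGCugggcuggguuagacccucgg

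In Mir199a-1 the shared bases were 6 to 32 and 43 to 70 of the hairpin, in Mir199a-2 they were 31 to 58 and 66 to 92, and in Mir199b 36 to 53 and 61 to 89. The longest stretch in common was 28 bases, between Mir199a-1 and Mir199b. On the 5′ side, the closest match to miR-199a-5p in the Mir199b hairpin lies at chr2:32318485-32318507 and differs by 1 base, C10U, counted from the 5′ end of miR-199a-5p. That 23-base stretch of Mir199b was in no other hairpin.
Mir199b stretch: cccaguguuUagacuaccuguuc

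**Figure D1:**
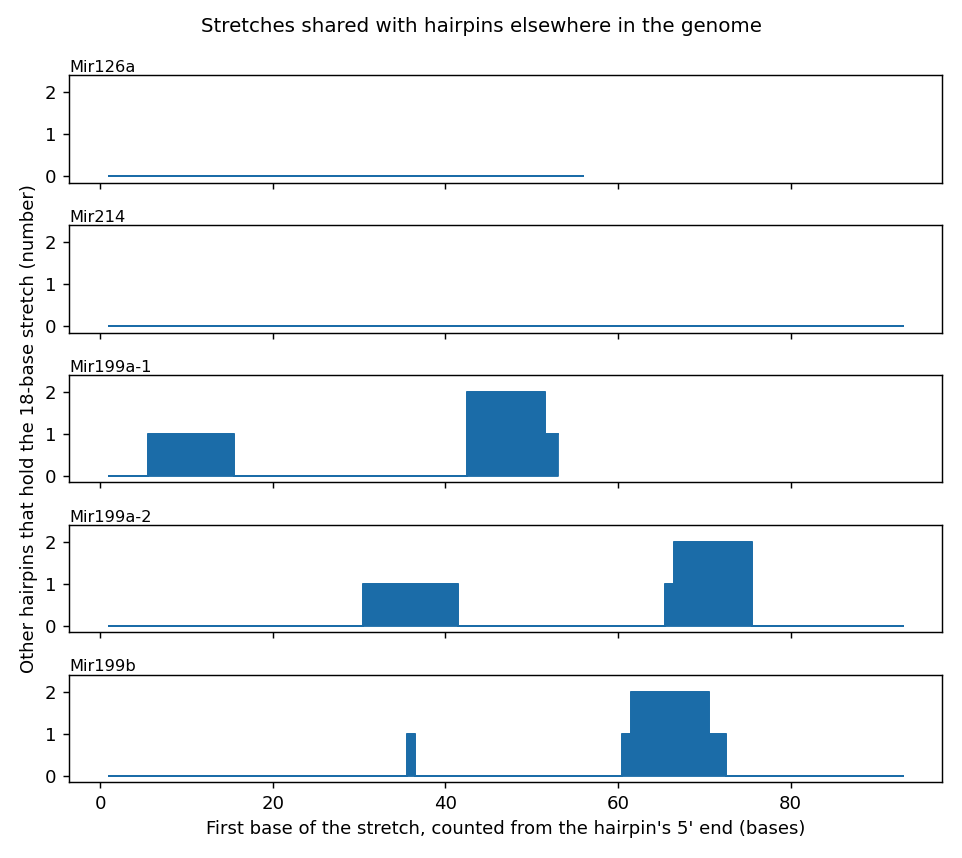
Number of other annotated miRNA hairpins (vertical axis) that hold each 18-base stretch of a hairpin, on either strand and elsewhere in the genome (a gene at the same place, such as Mir126b for Mir126a, is not counted), against the stretch's first base (horizontal axis, in bases from the hairpin's 5′ end). Mir126a and Mir214 share none, while the Mir199 genes share stretches in both arm regions, with up to 2 other hairpins. On the 5′ side of Mir199b only the stretch that starts at base 36 is shared.

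Mir126b is the mirror of Mir126a. The Mir126a hairpin, 73 bases at chr2:26591357-26591429 on the plus strand, overlaps an exon of an annotated transcript of Egfl7, and an intron of Gm20532, on the same strand. Mir126b, 58 bases at chr2:26591363-26591420, lies on the opposite strand inside it. The whole Mir126b hairpin is the reverse complement of bases 7 to 64 of Mir126a, in capitals here.
Mir126a: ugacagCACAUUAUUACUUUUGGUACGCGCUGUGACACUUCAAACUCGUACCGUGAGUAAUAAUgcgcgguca

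The endothelial gene Mir126a was by far the most counted member, and the mural gene Mir143 came next. Levels are counts on the gene's own strand scaled to a library sum of 1000000 gene counts (CPM), out of 2255838 counts in replicate 1 and 4521208 in replicate 2. Mir126a had 49381 counts in replicate 1 and 131233 in replicate 2, which is 21890 CPM (exact 95% Poisson interval 21698 to 22084) and 29026 CPM (28869 to 29184). It stood at rank 10 in replicate 1 and rank 8 in replicate 2 of all genes. In bulk tissue, fewer cells of a type and less RNA per cell cannot be told apart, so a level does not measure how many endothelial cells were sampled. Counts are of whole short reads and were not divided by hairpin length, and adapter ligation can favour some miRNAs, so an order of genes is one of reads.

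Mir126b, the antisense partner, had 0 counts on its own strand in both libraries. A count of 0 was taken to allow up to 3 counts, or 1.33 CPM in replicate 1 and 0.664 CPM in replicate 2, while the upper end of its two-sided 95% Poisson interval is 1.64 and 0.816 CPM. These floors and all intervals cover counting error only. Mir126a was thus at least 16460-fold higher than Mir126b in replicate 1 and at least 43744-fold higher in replicate 2, each against 3 counts in that library. The lower ends of the exact 95% intervals of these ratios are 13386 and 35575.

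The deposited columns mirror this overlap. On the strand opposite to Mir126b the files list 49381 and 131233 counts, exactly the counts of Mir126a on its own strand. In the column that ignores strand both genes read 0. The files count reads that overlap more than 1 gene as a separate total there, of 180035 reads in replicate 1 and 418828 in replicate 2, and the Mir126a counts would make up 27.4% and 31.3% of it. Mir143 and Mir145a had the same counts in both columns, and Mir214 gained 1 count in each library.

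**Figure D2:**
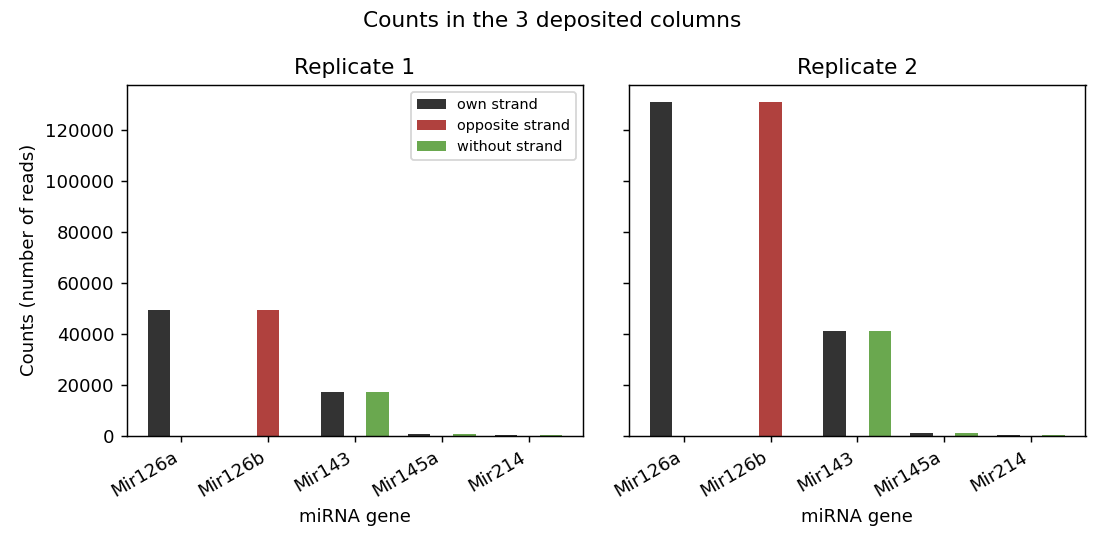
Counts (vertical axis, in reads) of the 4 members with more than 3 counts and of Mir126b (horizontal axis), in each deposited column, with 1 panel per library. Mir126a has counts on its own strand and none without strand, and Mir126b has the same number on its opposite strand (49381 in replicate 1, 131233 in replicate 2).

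Among the smooth muscle genes, Mir143 was abundant and its partner Mir145a was not. They lie 1.30 kb apart on the minus strand of chromosome 18, with no other annotated gene over either hairpin. Mir143 had 17005 and 41014 counts, or 7538 CPM (7425 to 7652) in replicate 1 and 9071 CPM (8984 to 9160) in replicate 2, at ranks 30 and 26. Mir145a had 603 and 1153 counts, or 267 CPM (246 to 289.5) and 255 CPM (241 to 270.2), at ranks 155 and 151. In both libraries Mir143 was far above Mir145a.

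The count ratio of Mir143 to Mir145a, which does not depend on the library total, was 28.2 (exact 95% interval 26.0 to 30.6) in replicate 1 and 35.6 (33.5 to 37.7) in replicate 2, a mean of 31.9 ± 5.21 (SD, n = 2). The intervals do not overlap, so the libraries differed in this ratio by more than counting error. Neither hairpin shares an 18-base stretch with another one: the longest stretch in common was 11 bases for Mir143 and 17 bases for Mir145a, the latter with Mir145b. Mir145b lies 7373 kb from Mir143 on the same chromosome and had 0 counts on either strand in both libraries. The ratio of the endothelial Mir126a to the mural Mir143 was 2.90 (2.85 to 2.96) in replicate 1 and 3.20 (3.16 to 3.24) in replicate 2.

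Of the Dnm3os genes, Mir214 was detected in both libraries and Mir199a-2 was at the floor. Mir214 lies at chr1:162223368-162223477 on the plus strand, 5.44 kb from Mir199a-2. Both overlap an exon of Dnm3os and lie in an intron of Dnm3, a dynamin gene, on the other strand. Mir214 had 110 and 381 counts, or 48.8 CPM (40.1 to 58.8) in replicate 1 and 84.3 CPM (76.0 to 93.2) in replicate 2, at ranks 235 and 206. Mir199a-2 had 0 and 2 counts, the latter 0.442 CPM (0.0536 to 1.598). Set against the floor, Mir214 was 36.7-fold above Mir199a-2 in replicate 1. The lower end of the exact 95% interval of that ratio is 29.3. In replicate 2 the ratio was 190.5 (52.4 to 1579). Both arms of Mir199a-2 occur whole in other hairpins, and reads that fit several places are not in its counts. These ratios are therefore of assigned counts and do not measure a difference between the miRNAs in the tissue.

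The other Mir199 genes were at the floor too. Mir199a-1, in an intron of Dnm2 on the opposite strand, had 0 counts in both libraries. Mir199b, in an intron of Dnm1 on the opposite strand, had 0 and 2 counts. These are the 3 members with an arm that occurs in more than 1 hairpin. For Mir199b that is the 3′ arm, while its 23-base stretch on the 5′ side was in no other hairpin. The files keep reads that fit several places as a separate total, of 2705225 reads in replicate 1 and 5818583 in replicate 2, against which 4 counts were assigned to a Mir199 gene. How many of those reads were miR-199 was not tested, so the low Mir199 counts are no measure of miR-199 in the tissue. Not all of each hairpin is shared: 32 of 53 stretches of 18 bases in Mir199a-1, 72 of 93 in Mir199a-2 and 80 of 93 in Mir199b were in no other hairpin. Of all 2202 hairpins, 1135 (51.5%) share such a stretch with a hairpin elsewhere, against 3 of the 9 members.

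**Figure D3:**
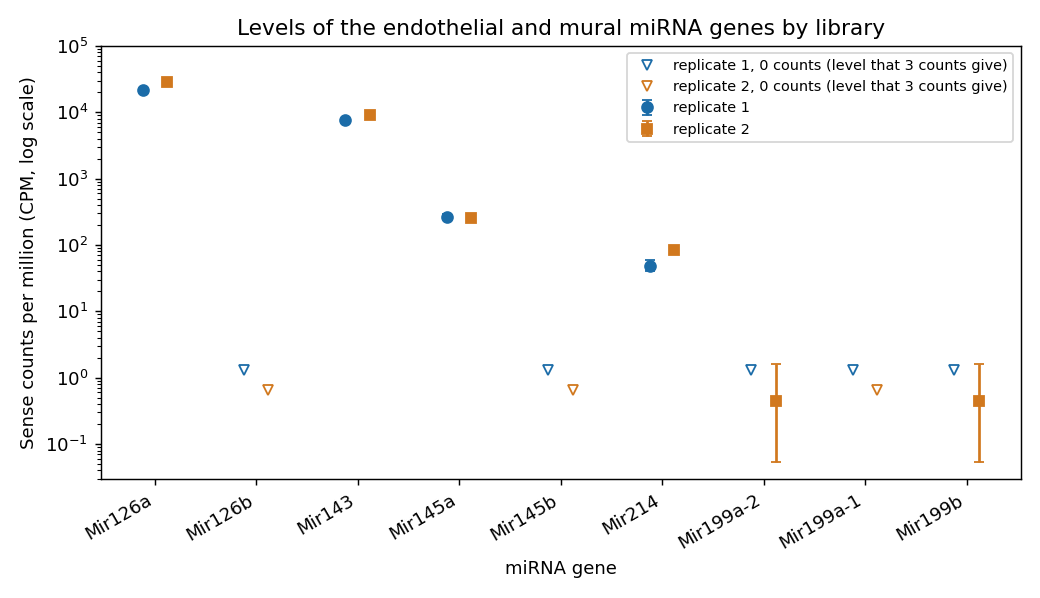
Level of each of the 9 genes (horizontal axis) in each library, in CPM on a log axis, with exact 95% Poisson intervals. Open triangles mark genes with 0 counts at the level that 3 counts give (1.33 CPM in replicate 1, 0.664 CPM in replicate 2), and Mir126a, Mir143, Mir145a and Mir214 stand above that in both libraries.

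By mean level the order was Mir126a (25458 ± 5046 CPM, SD, n = 2), Mir143 (8305 ± 1084), Mir145a (261 ± 8.69) and Mir214 (66.5 ± 25.1). Neighbours in that order did not overlap between their libraries. Mir143 stood 31.8-fold above Mir145a by the means, while Mir126a stood 3.07-fold above Mir143 and Mir145a 3.93-fold above Mir214. The other 5 genes were at or below the floor and have no order among themselves. Together the 9 genes took 2.97% of the counts in replicate 1 and 3.84% in replicate 2, of which Mir126a made up 73.6% and 75.5%. These shares leave out reads that fit several places.

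Mir126a, Mir143 and Mir214 had higher levels in replicate 2, while Mir145a was nearly level. Mir126a was 1.33-fold higher (exact 95% interval 1.31 to 1.34), a log2 ratio of 0.41 with 0.5 counts added. Mir143 was 1.20-fold higher (1.18 to 1.23), a log2 ratio of 0.27, and Mir214 1.73-fold higher (1.39 to 2.16), a log2 ratio of 0.78. Mir145a had a ratio of 0.954 (0.864 to 1.05), which includes 1, and its log2 ratio of -0.07 turned to 0.05 with edgeR's TMM factors, 0.12 with DESeq2 size factors and 0.23 with all reads as the total.

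Between these libraries, 128 of the 495 genes that averaged at least 1 CPM (25.9%) were 2-fold or more apart, 38 higher (7.68%) and 90 lower (18.2%) in replicate 2. Of the 4 members at that level, 0 were 2-fold apart, and with all reads as the total Mir214 was (log2 ratio 1.09). That total shifts every log2 ratio by 0.30, and the share of all genes 2-fold apart under it was not counted. With gene sums as the total, 32 of the 200 genes outside the members at a mean of 100 CPM or more were 2-fold apart. Their median log2 ratio was -0.13 (80 above 0 and 120 below). Mir214, at a mean of 66.5 CPM, lies below that level. The members had a median log2 ratio of 0.34 (3 above 0 and 1 below), against -0.19 over all 495 genes (191 above and 304 below). Of those genes, 42.0% had an absolute log2 ratio no larger than that of Mir126a, 27.9% than that of Mir143, 6.06% than that of Mir145a and 67.5% than that of Mir214. With 1 library per tissue sample there is no replicate check of any ratio.

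**Figure D4:**
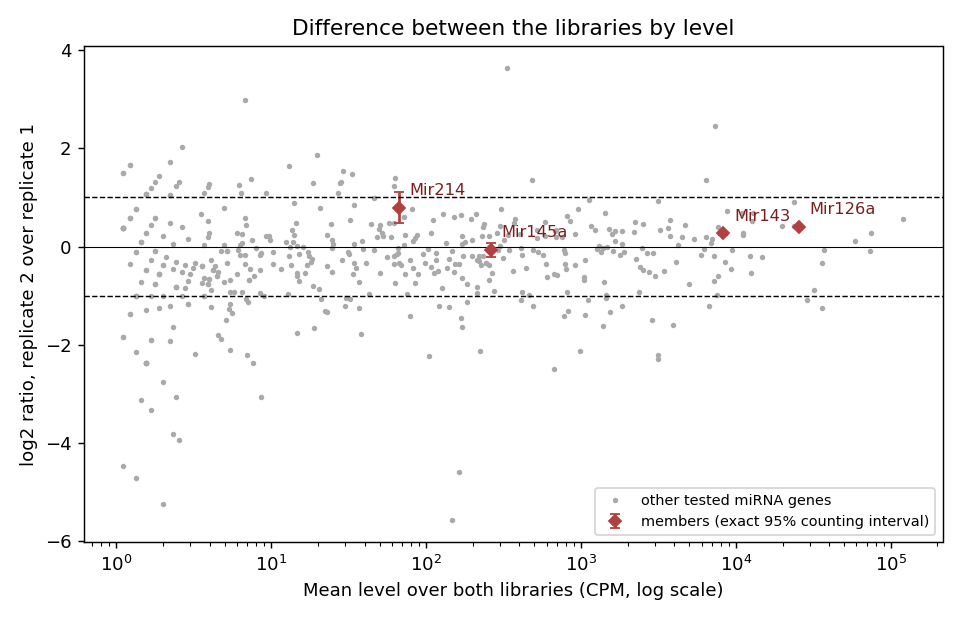
Log2 ratio of replicate 2 over replicate 1 (vertical axis) against mean level in CPM (horizontal log axis) for the 495 tested genes, with the 4 members as diamonds with exact 95% counting intervals and dashed lines at 2-fold. The members lie between -0.07 and 0.78, inside the dashed lines.

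Other miRNAs linked to vessel walls or connective tissue, many of them made by other cells too, were all present. Of the 22 genes on that list, 22 had at least 1 CPM in each library, with a joint share of 7.04% and 7.74%. By the mean over both libraries the highest were Mir23b at 17111 and 22843 CPM, Mir22 at 8350 and 13430 CPM, Mir23a at 6609 and 10910.4 CPM, and Mir221 at 10040 and 5067 CPM. In single libraries Mir100 (9307 CPM in replicate 1) stood above Mir22 and Mir23a, and Mir195a (12419 CPM in replicate 2) above Mir23a and Mir221. By log2 ratio 11 were above 0 and 11 below, with a median of -0.004, and 6 were 2-fold apart. Those 6 were Mir195a (log2 ratio 2.45), Mir10a (1.29) and Mir152 (1.22), higher in replicate 2, and Mir222 (-2.29), Mir21a (-1.60) and Mir100 (-1.21), lower.

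Markers of other cells set the members against the tissue. Some of these markers are shared with further cell types, so the share of a list is not the share of a cell type. The neuron list took 10.7% and 8.40% of the counts, with 7 of its 10 genes at 1 CPM or above in each library, 0 genes without a count, and Mir127 highest. The rest were Mir124a-1 (0.887 and 2.88 CPM), Mir124a-2 (1.77 and 0 CPM) and Mir124a-3 (0.443 and 0.885 CPM). Oligodendrocyte markers took 0.683% and 0.540%, those of microglia and leukocytes 0.411% and 0.256%, choroid plexus and ciliated cell markers 0.357% and 0.163%, and red cell markers 0.0138% and 0.0136%. Mir142b of the leukocyte list and Mir449b of the ciliated cell list had 0 counts. Markers of skeletal or heart muscle took 0.00173% and 0.00272%, nearly all from Mir206 at 15.1 and 26.3 CPM. Of those 8 markers, 5 (Mir1a-1, Mir1a-2, Mir133a-1, Mir133a-2 and Mir133b) had 0 counts. Reads that fit several places are not in any of these list sums. Whether reads of the markers were among them was not tested, so 0 counts or a low sum do not show absence. The red cell sum was nearly level between the libraries, and its genes went different ways. Their log2 ratios were 1.48 for Mir144, -0.57 for Mir451a and -0.01 for Mir486. The 9 vascular genes and the muscle list were higher in sum in replicate 2, and the sums of the neuron, oligodendrocyte, leukocyte and choroid plexus lists were lower there. Few genes carried some of those sums: Mir132 went from 38949 to 18329 CPM and Mir127 from 40253 to 31736 CPM, while the neuron list's median log2 ratio was 0.03, with 4 of 8 tested genes above 0. In the leukocyte list Mir342 went from 3090 to 1632 CPM. The part of these lists in the members' ratios was not tested.

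The genes most like each member in level over both libraries were found by the distance between log2(CPM + 1) values in 2 libraries, so likeness here is mainly likeness of level. Mirlet7e was nearest to Mir126a (distance 0.16), at 20203 and 26944 CPM, followed by Mir29a (0.41) and Mir23b (0.50). Mir652 was nearest to Mir143 (0.19), at 6649 and 8762 CPM, followed by Mir23a (0.33) and Mir98 (0.36). Nearest to Mir145a were Mir186 (0.21), Mir16-1 (0.23) and Mirlet7f-1 (0.23). Nearest to Mir214 were Mir296 (0.22), at 56.7 and 86.3 CPM, Mir148a (0.23) and Mir25 (0.34).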

How the data were processed

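The authors deposited raw counts for each miRNA gene, with a separate file for each library, on assembly mm10 with GENCODE M21, per the README files. Which aligner and counter made them was not given in the sources used here. Each file lists counts without strand, on the gene's strand and on the opposite strand, after 4 rows of read totals that were kept out of gene sums. The share of reads that were multimapping was 36.2% in replicate 1 and 47.9% in replicate 2. Unmapped reads made up 29.0% in replicate 1 and 11.2% in replicate 2. All 2202 gene IDs were named from GENCODE M21, and host genes are from the same annotation. Mature and hairpin sequences are RefSeq's for GRCm38. Stretches were compared with all GENCODE M21 hairpins, not with the genome. Values were computed in Python 3.11.15 with pandas 2.3.3 and scipy 1.17.1. Scaling factors came from edgeR 4.0.16 and DESeq2 1.42.0. The log2 ratio adds 0.5 counts to each library, and its interval is the exact conditional binomial one. The ratio and interval code was tested on simulated counts. Alternatives were other columns, totals, scalings, filters and pseudocounts and single libraries. Named genes were the 9 members, the 3 nearest genes of each member at 10 CPM or more, the 4 highest of the other vascular list and genes sharing a seed. The members of that list 2-fold apart, the markers at 0, the Mir124a genes and the red cell markers were named after their values were seen. Mir142a and Mir486a of the marker lists had no match by name. The members and lists were chosen with earlier results of these data known.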

Additional observations from a re-analysis of the deposited data

Results flagged for a closer look

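Mir126b stood out through a column outside the levels: it had 0 counts on its own strand, but 49381 counts on the opposite strand in replicate 1 and 131233 in replicate 2, far above the 3 counts that a count of 0 allows. Both numbers equal the counts of Mir126a on its own strand.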

How the results depend on the processing

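Of 54 recomputed values, 32 moved by less than the spread between the libraries or, for ratios, stayed within the counting interval (for counts of genes, within 1.5 times). That leaves out genes at 0 counts and single libraries, where no larger move was possible. The 54 still hold Mir199a-2 and Mir199b, whose spread (SD 0.313 CPM) exceeds their mean (0.221 CPM), so no fall could count as a move. The Mir143 to Mir145a ratio without strand was also fixed, since neither gene's counts change there. Without strand, Mir126a was at 0 CPM and Mir145a at 286 CPM, the members took 0.945% of the counts, and no Mir126a to Mir126b ratio could be given because both read 0. With all reads as the total, the means were 8696 CPM for Mir126a, 2823 for Mir143, 87.7 for Mir145a and 23.0 for Mir214. With mapped reads they were 10729, 3501, 110.2 and 28.0. Log2 ratios moved with the scaling: for Mir126a they were 0.53 (TMM), 0.60 (DESeq2), 0.71 (all reads) and 0.39 (mapped reads), for Mir143 0.39 (TMM), 0.46 (DESeq2) and 0.57 (all reads), and for Mir145a 0.12 (DESeq2) and 0.23 (all reads). These scalings shift every log2 ratio by 0.12 (TMM), 0.19 (DESeq2), 0.30 (all reads) and -0.02 (mapped reads). The number of genes 2-fold apart was 53 of 310 when an average of at least 10 CPM was asked, and 288 of 734 with 1 count or more in either library, where fewer or more genes were tested. No paired analysis was possible because the libraries form 1 group. Levels of Mir126b, Mir145b and the Mir199 genes, with 0 to 2 counts, lie at or below the floor, and the cause was not tested.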
